A study of Mus musculus with 47 samples.

Results

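The ErbB receptors and the neuregulins were followed as 8 genes, chosen by symbol: the receptors *Erbb2*, *Erbb3*, *Erbb4* and *Egfr*, and the ligands *Nrg1*, *Nrg2*, *Nrg3* and *Nrg4*. They were 8 of 23393 genes in the table of the acute experiment and 8 of 21034 genes in the 3 tables of the chronic experiment. All 8 passed the filters on low values in both. RNA was measured in 47 libraries of brain tissue from wild type C57BL/6 mice, taken during cuprizone feeding, after return to normal chow, or without cuprizone (naive). Cuprizone is a copper chelator given in the diet, which kills mature oligodendrocytes, the myelinating cells of the brain, and so removes myelin.

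In the acute experiment the corpus callosum, the large white matter tract between the hemispheres, was taken from naive mice of 2 months (1 female library), after 3 weeks of cuprizone (3 wk; 1 female and 2 male libraries) and after 5 weeks of cuprizone with 1 week of recovery (5 + 1 wk; 1 female and 2 male). In the chronic experiment corpus callosum, hippocampus and cortex were taken after 12 weeks of cuprizone (12 wk), after 4, 8 or 12 further weeks of recovery (12 + 4, 12 + 8 and 12 + 12 wk), and from naive mice of 8 months. The corpus callosum had 2, 2, 3 and 2 libraries in these cuprizone groups and 3 naive ones. The hippocampus had 3, 3, 2 and 2 libraries, with 3 naive ones, and the cortex had 3, 3, 3 and 2 libraries, with 4 naive ones. Every 12 + 12 wk library was female, while the other chronic groups held both sexes. The chronic naive mice were older than the 12 wk mice by the feeding schedule, so age and cuprizone cannot be told apart there. By the methods the acute and the chronic cortex libraries were read on another instrument, with shorter reads, than chronic corpus callosum and hippocampus. Region and instrument cannot be told apart for the cortex, nor experiment and instrument between acute and chronic corpus callosum. Whether regions came from the same mouse is not given in the labels. Libraries were treated as separate samples, so p-values measure the spread between these libraries.

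ErbB proteins are receptor tyrosine kinases that act as dimers. ErbB2 binds no known ligand and serves as partner of the others, and ErbB3 has little kinase activity of its own and signals through its partner, mainly to PI3K. Neuregulins carry an EGF-like domain that binds ErbB3 or ErbB4. Neuregulin signals are best known in myelin biology for Schwann cells of peripheral nerve, where axonal neuregulin 1 acting on ErbB2 and ErbB3 sets myelin thickness. In the brain ErbB3 is found in oligodendrocyte lineage cells, ErbB4 mostly in inhibitory neurons, and EGFR in progenitors and astrocytes.

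Promoter sequence was matched for 5 of the 8 members in the RefSeq promoter table (GRCm38.p6). The 250 bases before the start are shown for *Erbb4*, *Egfr* and *Nrg3*, a receptor with the receptor and the ligand it correlated with most over the chronic libraries (below), and for *Nrg4*, the member with the largest difference between corpus callosum and cortex among those matched. They run 5′ to 3′ on the gene's strand, with CG dinucleotides in capitals. *Erbb4* lies at chr1:69108060-69108309 (minus strand), *Egfr* at chr11:16751953-16752202 (plus strand), *Nrg3* at chr14:39473089-39473338 (minus strand) and *Nrg4* at chr9:55283626-55283875 (minus strand). The *Nrg4* window lies inside the annotated span of its gene (chr9:55220222-55326844) and not at the 5′ end of that span.
Erbb4: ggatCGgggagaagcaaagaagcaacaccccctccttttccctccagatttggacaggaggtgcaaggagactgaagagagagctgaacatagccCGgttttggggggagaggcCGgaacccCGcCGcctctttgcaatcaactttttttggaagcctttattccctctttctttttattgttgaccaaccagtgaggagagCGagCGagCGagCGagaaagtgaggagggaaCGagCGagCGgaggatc
Egfr: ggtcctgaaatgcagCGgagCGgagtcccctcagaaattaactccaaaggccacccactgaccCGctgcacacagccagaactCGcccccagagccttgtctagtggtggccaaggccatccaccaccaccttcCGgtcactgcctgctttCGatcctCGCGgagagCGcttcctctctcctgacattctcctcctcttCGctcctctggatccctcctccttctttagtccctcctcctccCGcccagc
Nrg3: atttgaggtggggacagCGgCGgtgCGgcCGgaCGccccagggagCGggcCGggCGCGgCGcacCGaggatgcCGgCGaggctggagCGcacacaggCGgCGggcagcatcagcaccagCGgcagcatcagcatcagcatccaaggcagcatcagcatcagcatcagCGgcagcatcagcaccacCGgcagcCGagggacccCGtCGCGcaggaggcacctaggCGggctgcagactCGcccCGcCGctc
Nrg4: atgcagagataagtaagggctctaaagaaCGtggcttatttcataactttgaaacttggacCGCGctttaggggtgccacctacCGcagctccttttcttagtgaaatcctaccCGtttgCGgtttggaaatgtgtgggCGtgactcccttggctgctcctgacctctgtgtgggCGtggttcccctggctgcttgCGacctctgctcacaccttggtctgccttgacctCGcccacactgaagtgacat

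The *Nrg3* promoter held 27 CG dinucleotides, more than 91.4% of the 32851 promoters in the table, at a GC content of 72.4%. *Erbb4* held 12, *Egfr* 11 and *Nrg4* 10, against a median of 6 over all promoters. The *Erbb2* window held 16, at a GC content of 66%. On either strand a GC box (GGGCGG, in 32.7% of all promoters) was found in the *Egfr* window, and a CCAAT box (CCAAT, in 33.9%) in the *Erbb2* window. The letters TATAAA, in 12.4% of all promoters, were in none of the 5 windows. These matches are descriptions of the letters in these windows.

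The 8 genes differ widely in size (GENCODE annotation, mouse genome build GRCm38). *Erbb3* spans 22.1 kb on chromosome 10 (chr10:128567523-128589652, minus strand) and *Erbb2* spans 25.2 kb on chromosome 11 (chr11:98412470-98437716, plus strand). *Egfr* spans 166 kb on the same chromosome (chr11:16752203-16918158, plus strand). *Erbb4* (chr1:68032186-69108059), *Nrg1* (chr8:31814551-32884029) and *Nrg3* (chr14:38368952-39473088) each cover more than a megabase on the minus strand, with spans of 1076, 1069 and 1104 kb. *Nrg2* (chr18:36017652-36197380) and *Nrg4* (chr9:55220222-55326844), also on the minus strand, span 179.7 and 106.6 kb. The annotated transcript is longest for *Erbb4* (12037 bases) and *Egfr* (10208 bases) and shortest for *Nrg4* (2095 bases). Transcript length is taken up below, since the libraries differed in how their values related to it.

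All deposited values are on a log2 scale. Those of the chronic tables were centred gene by gene over the 3 regions, so a value of 0 there is a gene's own middle and not a level. The tables give no counts, and the depth behind each value is unknown. Several libraries stood apart. Sex-linked genes were mixed, with female and male genes both present, in 8 of 13 hippocampus libraries and 2 of 12 corpus callosum libraries (12 + 4 wk replicate 2 and 12 + 8 wk replicate 1). They were mixed in 0 of 15 cortex libraries, and 1 of 7 acute libraries went against its label. The acute columns were assigned to groups by the column heads of the study's supplementary table, since the sample labels number them in another order. All 1999 genes compared with that table had equal values in all 7 columns in the order of its heads. Values in the order of the sample labels are given below only as an alternative. Acute library 5 + 1 wk replicate 1 had a rank correlation of 0.853 between values and gene GC content, against 0.028 and 0.040 in the other 5 + 1 wk libraries. The 3 wk libraries had −0.68 to −0.59 and the naive library −0.57, so all 5 + 1 wk libraries lay above them, with or without replicate 1. Over 13677 genes the 5 + 1 wk differences from 3 wk and from naive each had a rank correlation of 0.76 with GC content.

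Hippocampus marker genes averaged −0.51 and 0.69 in the 12 + 12 wk hippocampus libraries and −0.01 in 12 + 8 wk replicate 2, against 1.41 to 1.94 in the other 10 hippocampus libraries. They averaged 0.63 in naive cortex replicate 3, against −1.14 to −0.87 in the other naive cortex libraries. In the corpus callosum the cuprizone libraries had rank correlations of 0.06 to 0.39 between values and transcript length, against −0.39 to −0.28 in the naive ones. Hippocampus marker genes also averaged 0.85 in cortex 12 + 12 wk replicate 2, against −0.95 in replicate 1. Other marker genes were uneven too. Striatum marker genes averaged −0.79 to 1.58 in the naive corpus callosum libraries and −0.70 to 2.27 in the naive cortex libraries. The medians were 0.97 and 2.12, against −1.27 in naive hippocampus. Cortex layer marker genes averaged 0.01 to 0.61 in naive corpus callosum and 0.57 to 0.63 at 12 wk. They averaged 0.41 to 0.59 at 12 + 4 wk, −0.02 to 0.17 at 12 + 8 wk and −0.55 to 0.22 at 12 + 12 wk. Choroid plexus marker genes averaged 0.44 to 4.15 in the 12 + 4 wk hippocampus libraries. Their part in the calls was not tested. The calls that rest on libraries that stood apart are given with and without them where the group keeps other libraries. This was not possible for the 12 + 12 wk hippocampus group, where both libraries had low hippocampus markers.

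The first question was where the 8 genes are expressed in the uninjured brain. In naive mice 5 of the 8 differed between regions: *Erbb3* was higher in corpus callosum than in both grey matter regions, *Nrg1*, *Nrg2* and *Nrg3* were lower in corpus callosum than in cortex, and *Nrg4* was lower in cortex than in both other regions. *Erbb2*, the shared partner receptor, and *Egfr* passed the test in no pair of regions. A gene was called at an adjusted p below 0.05 by limma, with Benjamini-Hochberg adjustment over all 17054 chronic genes tested. Of the 24 tests, 9 were called, 4 higher and 5 lower. Between corpus callosum and cortex 5 of 8 members were called, where 43.1% of all genes were. Between hippocampus and cortex 3 of 8 were called, where 40.6% of all genes were, and between corpus callosum and hippocampus 1 of 8, where 17.7% were. Where naive regions are said below not to overlap, the share of all genes that did so is not given.

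*Erbb3* read 0.93, 0.27 and 0.06 in the naive corpus callosum libraries, against −0.48, −0.38 and −0.49 in naive hippocampus. The cortex values were 0.02, −0.40, −0.32 and −0.12. The corpus callosum libraries lay above all libraries of both other regions, although replicate 3 did so by little against cortex. The log2 difference was 0.87 ± 0.18 (SE) from hippocampus (adjusted p = 0.00092, limma) and 0.63 ± 0.17 from cortex (adjusted p = 0.0042, limma). The cortex call was lost without corpus callosum naive replicate 1, where the difference was 0.37 (adjusted p = 0.094, limma), and was kept in the other 16 alternatives run. All 12 genes of the mature oligodendrocyte list (among them *Mbp*, *Mog* and *Mobp*) were also higher in corpus callosum than in cortex, with a median difference of 1.35. In bulk tissue fewer cells of a type and less RNA per cell cannot be told apart.

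*Nrg1*, the ligand of ErbB3 and ErbB4 best known from axons, was ordered cortex, corpus callosum, hippocampus. It read −0.14, −0.32 and −0.07 in naive corpus callosum and −0.60, −0.44 and −0.58 in naive hippocampus, against 0.69, 0.42, 0.51 and 0.91 in naive cortex. No region overlapped another. Hippocampus lay 1.17 ± 0.14 (SE) below cortex on the log2 scale (adjusted p = 9.4e-08, limma) and corpus callosum 0.81 ± 0.14 below it (adjusted p = 2.5e-05, limma). Corpus callosum and hippocampus did not differ beyond the threshold (0.36 ± 0.15, adjusted p = 0.089, limma). *Nrg2*, a second ligand of both receptors, read 0.04, −0.21 and −0.24 in corpus callosum and −0.20, −0.24 and −0.23 in hippocampus. It read 0.36, 0.31, 0.39 and 0.09 in cortex, above every library of both other regions. Its differences from cortex were −0.43 ± 0.09 in corpus callosum (adjusted p = 0.00035, limma) and −0.51 ± 0.09 in hippocampus (adjusted p = 4.4e-05, limma).

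*Nrg4*, a ligand of ErbB4, differed between cortex and the other regions by about as much as *Nrg1* did. It read 0.25, 0.19 and 0.19 in naive corpus callosum and 0.06, −0.11 and 0.37 in naive hippocampus, against −0.71, −1.09, −0.70 and −0.98 in naive cortex. The difference was 1.08 ± 0.15 between corpus callosum and cortex, a 2.11-fold ratio (adjusted p = 1.8e-06, limma), and 0.97 ± 0.15 between hippocampus and cortex (adjusted p = 7.9e-06, limma). The cortex libraries also differ in instrument, as noted above, and its part in these differences was not tested. Over 16564 genes the naive differences from cortex had rank correlations with transcript length of −0.50 in corpus callosum and −0.42 in hippocampus. Both *Nrg4* differences were called in all 17 alternatives (0.91 to 1.13 and 0.83 to 1.08), among them a correction for transcript length and GC content. *Nrg3*, a ligand of ErbB4, lay 0.47 ± 0.14 below cortex in corpus callosum (adjusted p = 0.0067, limma). Its libraries overlapped, with −0.50, 0.08 and −0.08 in corpus callosum and 0.27, 0.13, 0.05 and 0.77 in cortex. The call was lost without corpus callosum naive replicate 1 (−0.31, adjusted p = 0.10, limma; 0.0024 to 0.048 in the other alternatives).

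*Erbb4*, the receptor of inhibitory neurons, read −0.19, 0.13 and 0.14 in naive corpus callosum, all within the wide spread of naive cortex (0.53, −0.16, −0.23 and 0.88). It read −0.18, −0.33 and −0.26 in naive hippocampus, 0.51 ± 0.23 below cortex (adjusted p = 0.072, limma). Without naive cortex replicate 3, whose hippocampus markers were high, the *Erbb4* difference between hippocampus and cortex was −0.67 (adjusted p = 0.019, limma) and that of *Nrg3* was −0.40 (adjusted p = 0.025, limma). Without naive cortex replicate 2 they were −0.65 and −0.37 (adjusted p = 0.029 and 0.046, limma), and without replicate 4 they were −0.30 and −0.16 (adjusted p = 0.30 and 0.34, limma). Without replicate 3 the 8 calls against cortex were kept, and without the mixed libraries all 9 calls. After a correction of each library for transcript length and GC content, *Erbb4* and *Egfr* turned direction between corpus callosum and cortex, from below cortex to above it, as given in the closing section.

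**Figure D1:**
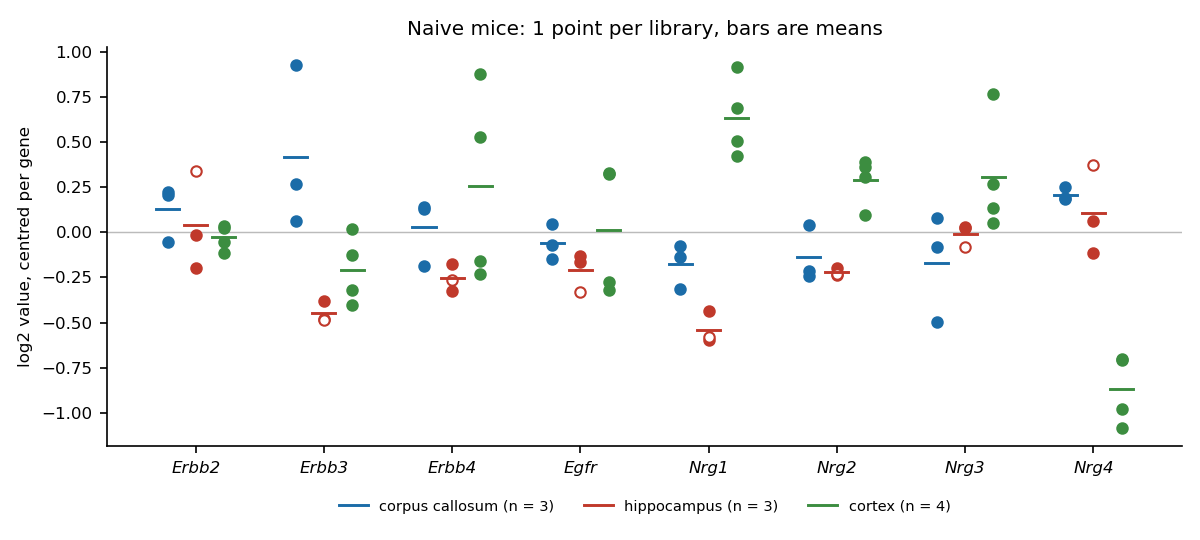
Log2 values, centred per gene, of the 8 genes (horizontal axis) in naive libraries of corpus callosum (n = 3), hippocampus (n = 3) and cortex (n = 4); each point is 1 library, bars are means, and open points are libraries with mixed sex-linked genes. *Erbb3* is highest in corpus callosum, *Nrg1* and *Nrg2* are highest in cortex, and *Nrg4* is lowest in cortex.

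Only the acute table holds levels, which allows the members to be set side by side within corpus callosum. Per kilobase of the longest annotated transcript, *Nrg3* had the highest level on the linear scale, with a median of 85.6 over the 7 libraries (53.7 to 118.2). *Nrg2* followed with a median of 34.6 (27.3 to 77.8). Among the receptors, *Egfr* had a median of 13.4 (8.22 to 19.8), *Erbb3* 10.5 (6.27 to 27.3), *Erbb2* 8.88 (6.68 to 14.6) and *Erbb4* 8.09 (2.67 to 13.3). These 4 ranges overlap one another. *Nrg1* had a median of 8.25 (3.70 to 9.22) and *Nrg4* the lowest, 4.64 (3.77 to 6.49). The longest annotated transcript need not be the one expressed, which matters most for *Nrg1* with its 18 annotated transcripts.

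The acute experiment asked how the 8 genes behave at 3 weeks of cuprizone, when oligodendrocytes are dying, and early in repair. No member passed the test in any of the 24 comparisons by limma, and 5 had an unadjusted p below 0.05. Over all genes the acute table gave almost no calls: 0% of 14536 genes for 3 wk against naive, 0.00688% for 5 + 1 wk against naive and 0% for 5 + 1 wk against 3 wk. The fit gave the lone naive library the same spread as the replicated groups. The mature oligodendrocyte list had a median log2 difference of −2.35 between 3 wk and naive and of 2.54 between 5 + 1 wk and 3 wk, with 0 of its genes called in either.

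*Erbb3* read 7.002 in the naive library, 5.87, 5.24 and 5.52 at 3 wk, and 7.36, 6.61 and 5.98 at 5 + 1 wk. Every 5 + 1 wk library lay above every 3 wk library, as 20.9% of all genes did. The log2 difference between them was 1.10 ± 0.36 (SE), a 2.15-fold ratio (adjusted p = 0.18, limma), and that between 3 wk and naive was −1.46 ± 0.51 (adjusted p = 0.80, limma). With library weights both were called. Without 5 + 1 wk replicate 1 the difference from 3 wk was 0.75 (adjusted p = 0.093, limma). With the columns in the order of the sample labels it was 0.49 and the 3 wk difference from naive was 0.17, so the acute *Erbb3* pattern depends on the column heads used.

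*Egfr* read 6.39, 7.10 and 6.65 at 5 + 1 wk, against 7.37, 7.54 and 7.66 at 3 wk. *Nrg3* read 7.89, 8.39 and 7.75 at 5 + 1 wk, against 8.42, 8.89 and 8.66 at 3 wk. For both genes every 5 + 1 wk library lay below every 3 wk library, as 22.8% of all genes did. The differences were −0.81 ± 0.22 for *Egfr* and −0.65 ± 0.22 for *Nrg3* (adjusted p = 0.18 for each, limma). *Erbb4* differed by −1.15 ± 0.43 (adjusted p = 0.19, limma) with overlapping libraries, since 5 + 1 wk replicate 2 (6.61) lay just above the lowest 3 wk library (6.60). After correction for length and GC content the *Egfr* difference was −0.07 (adjusted p = 0.80, limma) and the *Erbb4* difference −0.15 (adjusted p = 0.89, limma). *Nrg2* differed in the other direction, with 7.89, 6.79 and 6.72 at 5 + 1 wk above 6.59, 6.41 and 6.38 at 3 wk (0.68 ± 0.32, adjusted p = 0.23, limma). Without 5 + 1 wk replicate 1 that difference was 0.30 (adjusted p = 0.13, limma), with −0.65 for *Egfr*, −0.59 for *Nrg3* and −1.27 for *Erbb4*. In the order of the sample labels it was −0.11 for *Nrg2*, −0.28 for *Egfr*, −0.29 for *Nrg3* and −0.80 for *Erbb4*. *Erbb2*, *Nrg1* and *Nrg4* overlapped between 5 + 1 wk and 3 wk. The highest *Erbb2*, *Erbb3*, *Nrg2* and *Nrg4* values were all in 5 + 1 wk replicate 1, the library that stood apart in GC content.

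**Figure D2:**
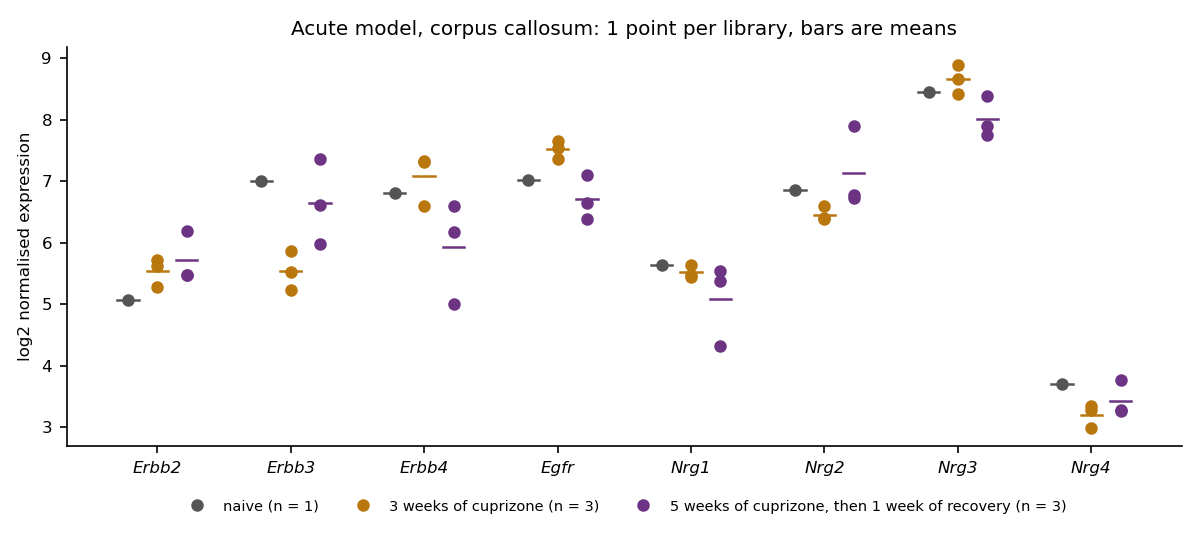
Log2 normalised expression of the 8 genes in the 7 acute corpus callosum libraries, naive (n = 1), 3 wk (n = 3) and 5 + 1 wk (n = 3); each point is 1 library and bars are means. *Erbb3* is lowest at 3 wk, and *Egfr* and *Nrg3* are lowest at 5 + 1 wk, with no adjusted p below 0.05 for any of the 8.

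The chronic experiment asked what 12 weeks of cuprizone and long recovery leave behind. In corpus callosum the ligand *Nrg1* was higher in every cuprizone and recovery group than in naive mice, and it was the only one of the 8 called in the mean over these 4 groups. *Erbb3* lay lowest at 12 wk and above naive after recovery, where the 12 + 12 wk difference was called, and *Erbb4* was called higher at 12 + 8 wk. Of 64 tests in corpus callosum 7 were called, all higher, and 17 had an unadjusted p below 0.05. Against naive, 1 of 8 members was called at 12 wk, where 19.8% of all genes were (9.98% higher), and 1 at 12 + 4 wk, where 16.4% were (8.06% higher). At 12 + 8 wk 2 were called, where 20.7% of all genes were (10.7% higher), and 2 at 12 + 12 wk, where 18.4% were (9.35% higher). In the mean of the 4 groups 1 was called, where 28.4% of all genes were (14.4% higher). Set against calls in either direction, the share of members called stood near the background or below it in each. Set against genes called higher alone, it lay above the background in the 4 single groups and below it in their mean. Each of these shares rests on 1 or 2 genes of 8. The 5 contrasts against naive share the same 3 naive libraries.

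*Nrg1* read −0.14, −0.32 and −0.07 in the naive corpus callosum libraries. It read 0.44 and 0.37 at 12 wk, 0.19 and 0.17 at 12 + 4 wk, 0.50, 0.61 and 0.48 at 12 + 8 wk, and 0.50 and 0.19 at 12 + 12 wk. All 9 cuprizone libraries lay above all 3 naive ones, as 10.4% of all genes did. The mean log2 difference was 0.54 ± 0.08 (SE), a 1.46-fold ratio (adjusted p = 0.00085, limma), and it was called in all 23 alternatives run. By group it was 0.58 ± 0.10 at 12 wk (adjusted p = 0.0055, limma) and 0.36 ± 0.10 at 12 + 4 wk (adjusted p = 0.043, limma). It was 0.70 ± 0.09 at 12 + 8 wk (adjusted p = 0.0015, limma) and 0.52 ± 0.10 at 12 + 12 wk (adjusted p = 0.01, limma).

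The 12 + 8 wk call was kept in all 18 alternatives. The 12 + 4 wk call was kept in 6 of 17, with adjusted p between 0.019 and 0.23 by limma. It was lost without 12 + 4 wk replicate 1 (0.35) or 2 (0.37) and without naive replicate 1 (0.38) or 2 (0.29). The 12 wk call was kept in 16 of 17 and lost without 12 wk replicate 1 (0.55, adjusted p = 0.057, limma). The 12 + 12 wk call was lost without 12 + 12 wk replicate 1 (0.37, adjusted p = 0.069, limma) and with only those groups fitted (adjusted p = 0.11, limma). Without the 2 mixed libraries the mean difference was 0.55 (adjusted p = 0.0074, limma), and the 12 + 4 wk call was lost (0.37, adjusted p = 0.23, limma). *Nrg1* went with the length trend of the corpus callosum libraries (Pearson r = 0.87 over 12 libraries), which itself separated cuprizone from naive libraries. After the correction for length and GC content its mean difference was 0.45 (adjusted p = 0.0066, limma), and only the 12 + 4 wk call was lost (0.30, adjusted p = 0.15, limma). Nuclear retained RNAs (*Malat1*, *Neat1*, *Meg3*, *Snhg11*, *Miat*) were higher in the same libraries, 4 of 5 called in each comparison with naive, with list means of 0.39 to 0.85 in cuprizone libraries and −0.78 to −0.25 in naive ones. Their part in the *Nrg1* difference was not tested.

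The *Nrg1* difference was larger in corpus callosum than in either other region, by the test of the difference itself. In hippocampus the mean *Nrg1* difference between cuprizone and naive libraries was −0.04 ± 0.12 (adjusted p = 0.98, limma), and in cortex −0.01 ± 0.12 (adjusted p = 0.99, limma). The corpus callosum effect exceeded the hippocampus effect by 0.58 ± 0.17 (adjusted p = 0.024, limma) and the cortex effect by 0.55 ± 0.16 (adjusted p = 0.032, limma). Of all genes 13.3% and 8.37% were called in these comparisons, and *Nrg1* was the only one of the 8 members. Of the 48 tests of differences between regions in the cuprizone effect, these were the 2 called. For the 12 wk effect alone no member was called by limma, where 2.4% of all genes were between corpus callosum and cortex, 1.54% between corpus callosum and hippocampus, and 0% between hippocampus and cortex. The difference from cortex was called in 31 of 37 alternatives and that from hippocampus in 31 of 34, with adjusted p up to 0.092 and 0.079 by limma. The cortex call was lost without naive replicate 1 or 2 of corpus callosum or 1 or 4 of cortex (adjusted p = 0.052 to 0.092, limma). The hippocampus call was lost without naive replicate 2 of corpus callosum or 1 or 2 of hippocampus (adjusted p = 0.051 to 0.079, limma). The cortex call was also lost without the mixed libraries (0.56, adjusted p = 0.091, limma).

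**Figure D3:**
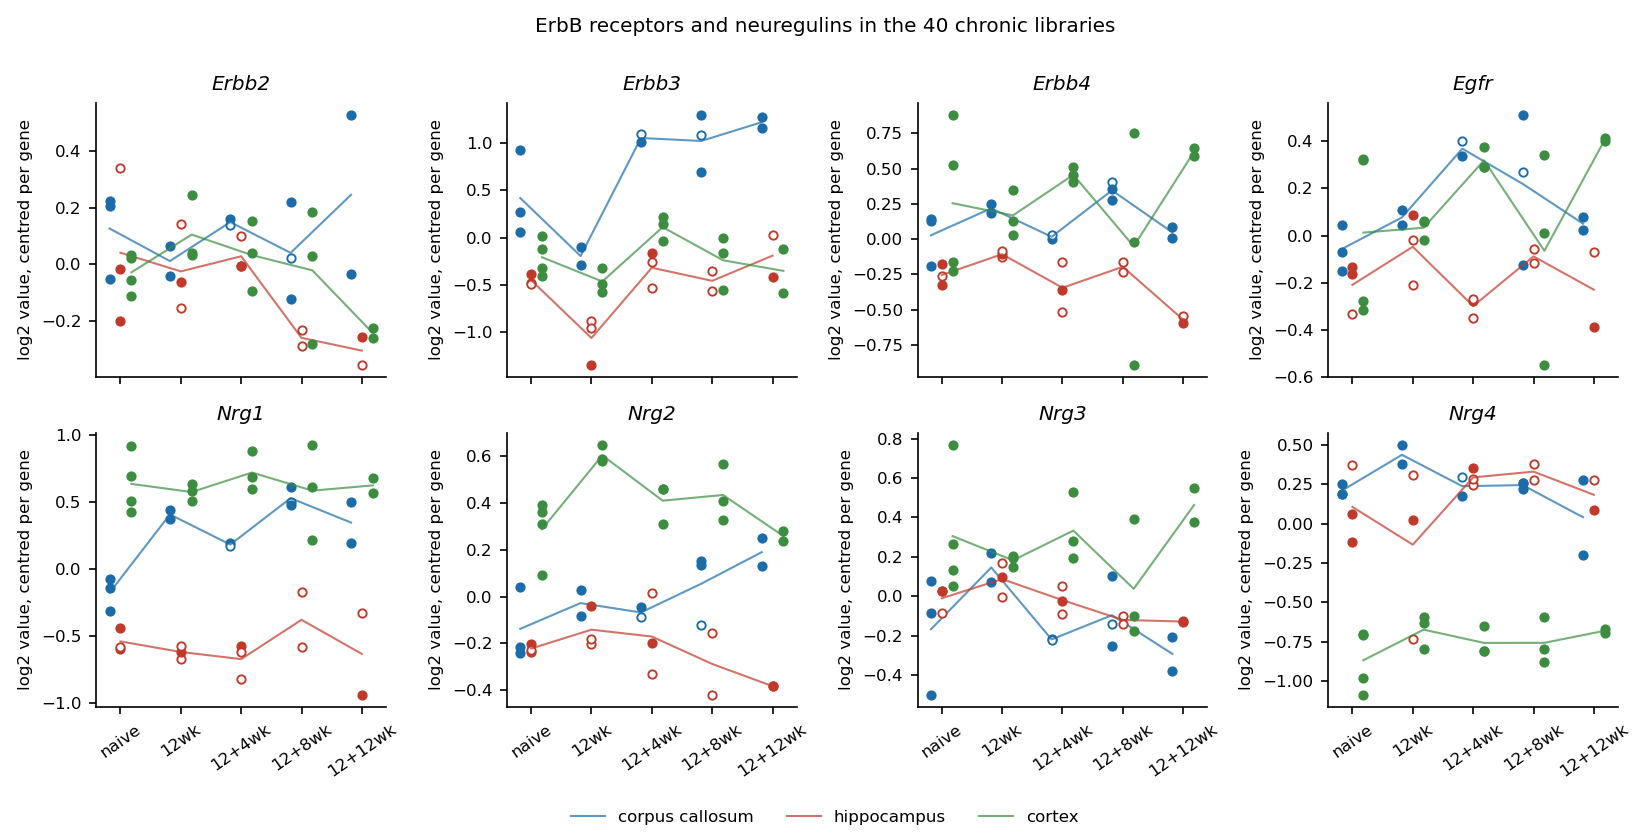
Log2 values, centred per gene, of the 8 genes (1 panel each) in the 40 chronic libraries by group along the horizontal axis; each point is 1 library, lines join group means, and open points are libraries with mixed sex-linked genes. *Nrg1* in corpus callosum lies above naive in every cuprizone group, and *Erbb3* is lowest at 12 wk in corpus callosum and hippocampus.

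*Erbb3*, the receptor of oligodendrocyte lineage cells, read −0.10 and −0.29 in corpus callosum at 12 wk, against 0.93, 0.27 and 0.06 in naive corpus callosum. It read 1.01 and 1.09 at 12 + 4 wk, 1.08, 0.69 and 1.29 at 12 + 8 wk, and 1.28 and 1.16 at 12 + 12 wk. All 7 recovery libraries lay above both 12 wk libraries. Of all genes 25.1%, 14.3% and 24.3% did so at 12 + 4, 12 + 8 and 12 + 12 wk. Both 12 wk libraries lay below all naive ones, as 25.1% of genes did. The differences of the recovery groups from 12 wk were 1.25 ± 0.26, 1.22 ± 0.23 and 1.41 ± 0.26 (SE), with adjusted p of 0.29, 0.29 and 0.051 by limma. In these comparisons 0%, 0% and 0.446% of all genes were called. The 12 + 12 wk difference from 12 wk passed in 7 of 16 alternatives, such as with library weights (adjusted p = 0.026, limma), with a range of 0.00023 to 0.30. Against naive, *Erbb3* differed by −0.61 ± 0.23 at 12 wk (adjusted p = 0.095, limma). At 12 + 12 wk it was higher by 0.80 ± 0.23, a 1.74-fold ratio (adjusted p = 0.041, limma).

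That last call was kept in 8 of 17 alternatives, with adjusted p of 0.0073 to 0.17 by limma, and was lost without the mixed libraries (0.80, adjusted p = 0.089, limma) and with the length and GC correction (0.64, adjusted p = 0.10, limma). With sex as covariate it was not called either (0.77, adjusted p = 0.075, limma). It was also lost without 12 + 12 wk replicate 1 (0.74) or 2 (0.86) and without naive replicate 2 (0.72) or 3 (0.62). The 12 + 4 wk (0.63 ± 0.23) and 12 + 8 wk (0.60 ± 0.21) differences from naive missed the threshold (adjusted p = 0.096 and 0.069, limma). All 12 + 12 wk libraries were female. Mature oligodendrocyte genes were lower at 12 wk than in naive corpus callosum, 8 of 12 called, with a median of −1.11. At 12 + 12 wk 0 of the 12 were called against naive by limma, with a median of 0.27.

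In hippocampus *Erbb3* read 0.03 and −0.41 at 12 + 12 wk, against −0.88, −1.34 and −0.96 at 12 wk. The naive hippocampus libraries read −0.48, −0.38 and −0.49. Every 12 wk library lay below every library of the other groups, and the share of all genes that did so is not given here. At 12 + 12 wk *Erbb3* was higher than at 12 wk by 0.87 ± 0.16, a 1.83-fold ratio (adjusted p = 0.0081, limma). *Erbb4* was lower at 12 + 12 wk, with −0.55 and −0.60 against −0.13, −0.11 and −0.09 at 12 wk. That difference was −0.46 ± 0.09, a 0.725-fold ratio (adjusted p = 0.0081, limma). These were the 2 calls among 64 hippocampus tests, of which 13 had an unadjusted p below 0.05. In that comparison 13.2% of all genes were called, and 22.3% lay higher and 23% lower without overlap. Against naive no member was called by limma in hippocampus, where 0% of all genes were at 12 wk and 12 + 8 wk, 0.00586% at 12 + 4 wk, 2.22% at 12 + 12 wk and 0% in their mean.

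The 12 + 12 wk hippocampus libraries were the ones with low hippocampus markers. All 6 genes of that list were lower at 12 + 12 wk than at 12 wk, with a median of −1.70. All 12 mature oligodendrocyte genes were higher, with a median of 1.27, and 4 of 8 pan-neuronal genes were higher and 1 lower. The part of tissue content in both calls was not tested. Without the mixed libraries, which left 1 library at 12 wk and 1 at 12 + 12 wk, neither was called: *Erbb3* differed by 0.93 (adjusted p = 0.092, limma) and *Erbb4* by −0.49 (adjusted p = 0.16, limma). *Erbb3* was also not called without 12 + 12 wk replicate 1 (0.65, adjusted p = 0.084, limma). *Erbb4* was not called once length and GC content were corrected for (−0.24, adjusted p = 0.061, limma). Over all their alternatives the adjusted p ran from 0.0066 to 1 for *Erbb3* and from 0.0065 to 1 for *Erbb4*.

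The other hippocampus differences of *Erbb3* missed the threshold. They were −0.61 ± 0.15 between 12 wk and naive (adjusted p = 0.26, limma), 0.74 ± 0.15 between 12 + 4 wk and 12 wk (adjusted p = 0.099, limma) and 0.60 ± 0.16 between 12 + 8 wk and 12 wk (adjusted p = 0.095, limma). Few genes passed in these comparisons, with 0%, 0% and 0.194% called. In cortex *Erbb3* read 0.15, −0.04 and 0.22 at 12 + 4 wk, against −0.49, −0.32 and −0.58 at 12 wk, without overlap, as 11.4% of all genes did. The naive cortex libraries (−0.40 to 0.02) overlapped the 12 wk ones. The 12 + 4 wk difference from 12 wk was 0.57 ± 0.16 (adjusted p = 0.80, limma), where 0.0293% of all genes were called. At 12 + 8 wk cortex *Erbb3* read −0.55, −0.004 and −0.16, and at 12 + 12 wk −0.12 and −0.58, both overlapping 12 wk. In all 3 regions the *Erbb3* mean at 12 wk was the lowest of the 5 groups, but in cortex only the 12 + 4 wk libraries lay clear of it.

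*Erbb3* followed the myelin genes from library to library. After subtracting each region's mean, its values correlated with the mean of the mature oligodendrocyte list at r = 0.80 over the 40 chronic libraries (Pearson), and at 0.72 without the 2 libraries farthest out on that list. Within regions r was 0.83 over 12 corpus callosum libraries, 0.92 over 13 hippocampus libraries and 0.43 over 15 cortex libraries. Without the mixed libraries r was 0.80. With the oligodendrocyte progenitor list r was 0.59, and 0.69 without the 2 libraries farthest out on it. Within regions it was 0.75 in corpus callosum, 0.57 in hippocampus and 0.59 in cortex, where it exceeded that with the mature list. These points share groups, sequencing runs and the authors' normalization, and the values are descriptions. The genes most like *Erbb3* over these libraries were *Dock5* (0.91), *Npc1* (0.90) and *Plekhh1* (0.90).

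**Figure D4:**
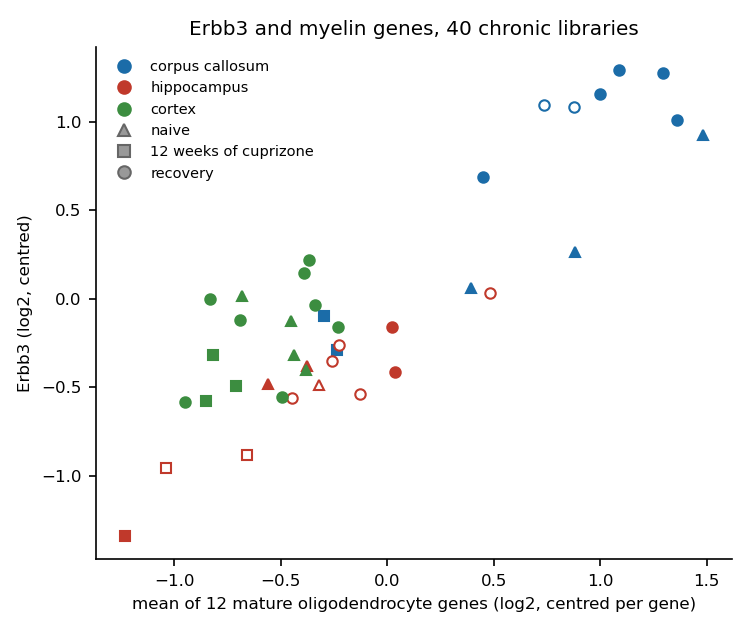
*Erbb3* (vertical axis, log2, centred per gene) against the mean of 12 mature oligodendrocyte genes (horizontal axis, same scale) in the 40 chronic libraries; colours mark regions, triangles naive, squares 12 wk and circles recovery libraries, and open symbols libraries with mixed sex-linked genes. The 12 wk libraries of corpus callosum and hippocampus sit low on both axes within their region.

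*Erbb4* in corpus callosum read 0.41, 0.35 and 0.27 at 12 + 8 wk, against −0.19, 0.13 and 0.14 in naive libraries, without overlap, as 18.3% of all genes did. The difference was 0.32 ± 0.09, a 1.25-fold ratio (adjusted p = 0.034, limma). It was called in 9 of 18 alternatives, with a range of adjusted p from 0.0075 to 0.97 by limma, and was lost without 12 + 8 wk replicate 1 (0.29) or 2 (0.31) or naive replicate 1 (0.21). With sex as covariate its adjusted p was 0.051 by limma. With the correction for length and GC content it was 0.01 (adjusted p = 0.97, limma), and without the mixed libraries it was 0.29 (adjusted p = 0.17, limma). At 12 wk (0.19 and 0.25), 12 + 4 wk (0.00 and 0.03) and 12 + 12 wk (0.08 and 0.01) *Erbb4* was not called.

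*Erbb4* varied with *Nrg3* and with *Egfr* from library to library. With region means subtracted, *Erbb4* correlated with *Nrg3* at r = 0.75 and with *Egfr* at r = 0.74 over 40 libraries, and at 0.66 and 0.66 without the 2 libraries farthest out. Between *Erbb4* and *Egfr* r was 0.94 in cortex and 0.04 in corpus callosum, and between *Egfr* and *Nrg3* it was 0.38 over the 40 libraries. *Nrg1* correlated with *Erbb4* at 0.57 and with *Egfr* at 0.53. All 4 also went with the length trend of the libraries, *Erbb4* at r = 0.80, *Egfr* at 0.72, *Nrg1* at 0.63 and *Nrg3* at 0.59. In cortex these were 0.95, 0.97, 0.82 and 0.75 over 15 libraries. *Erbb4* correlated with inhibitory neuron markers at 0.41 in corpus callosum, 0.35 in hippocampus and −0.34 in cortex. *Egfr* correlated with the oligodendrocyte progenitor list at 0.67, with 0.63 in corpus callosum, 0.17 in hippocampus and 0.77 in cortex, and its most similar gene was *Ptprz1* (0.90), itself a member of that list, followed by *Tjp1* (0.84) and *Sox6* (0.83). The genes most like *Erbb4* were *Gucy1a2* (0.94), *Pcm1* (0.94) and *Bmpr2* (0.93), and those most like *Nrg3* were *Pja2* (0.91), *Gabrb2* (0.89) and *Fbxl17* (0.89).

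In cortex the spread of *Erbb4* within 1 group was as wide as any difference between groups, from −0.89 to 0.75 at 12 + 8 wk and from −0.23 to 0.88 in naive libraries. *Egfr* ran from −0.55 to 0.34 and from −0.32 to 0.33 in the same groups. No member was called in any of the 64 cortex tests by limma, and 4 had an unadjusted p below 0.05. The shares of all genes called were 0.0645% for 12 wk against naive, 0% for each recovery group and for the mean of the 4 groups against naive, and 0.0293%, 0.0176% and 0.0762% for the recovery groups against 12 wk. *Nrg2* lay above naive at 12 wk, with 0.65, 0.59 and 0.58 at 12 wk against 0.36, 0.31, 0.39 and 0.09 in naive cortex (0.32 ± 0.10, adjusted p = 0.37, limma). The share of all genes that lay above naive without overlap is not given here. At 12 + 12 wk *Nrg2* read 0.24 and 0.28, 0.34 ± 0.11 below 12 wk (adjusted p = 0.24, limma). Without 12 + 12 wk replicate 2, whose hippocampus markers were high, the difference was −0.37 (adjusted p = 0.34, limma), and with the length and GC correction it was −0.17 (adjusted p = 0.45, limma). Over the 40 libraries *Nrg2* correlated with pan-neuronal markers at −0.65. The genes most like it were *Tctn1* (0.77), *Kdm4b* (0.74) and *Rab34* (0.74).

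*Egfr* in corpus callosum read 0.34 and 0.40 at 12 + 4 wk, against 0.04, −0.15 and −0.07 in naive libraries (0.43 ± 0.15, adjusted p = 0.082, limma). *Nrg3* read −0.38 and −0.21 at 12 + 12 wk, against 0.07 and 0.22 at 12 wk (−0.44 ± 0.18, adjusted p = 0.25, limma). *Nrg4* read −0.20 and 0.28 at 12 + 12 wk, against 0.50 and 0.38 at 12 wk (−0.40 ± 0.13, adjusted p = 0.18, limma). *Erbb2*, the common partner, stayed between −0.12 and 0.53 in all 12 corpus callosum libraries and was called in no comparison of any region. Nor was *Erbb2* called in the acute table, where it read 5.28 to 5.72 at 3 wk and 5.07 in the naive library. *Nrg4* in corpus callosum stayed above every cortex library in all 12 libraries, with a lowest value of −0.20 against a highest cortex value of −0.59. The share of all genes that did so is not given here. The closest genes were *Gpr39* (0.78) for *Nrg4*, *Appbp2* (0.79) and *Ptpn4* (0.79) for *Nrg1*, and *Slc35g1* (0.58) for *Erbb2*.

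**Figure D5:**
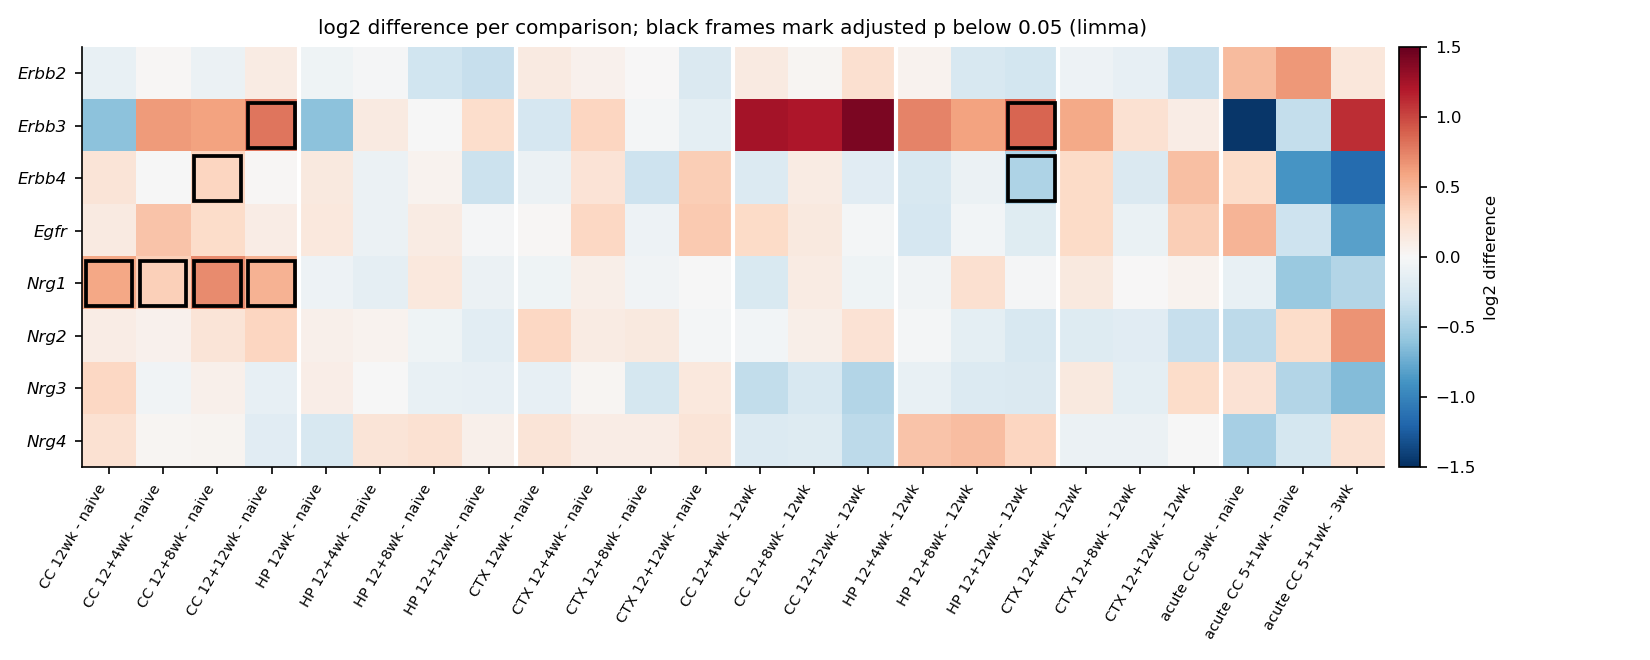
Log2 difference (colour, from −1.5 in blue to 1.5 in red) of the 8 genes (rows) in the comparisons of cuprizone or recovery groups with naive, and of recovery with demyelination (columns), in corpus callosum (CC), hippocampus (HP), cortex (CTX) and the acute table. Black frames mark the calls: *Nrg1* in 4 and *Erbb3* and *Erbb4* in 1 comparison each of corpus callosum with naive, and *Erbb3* and *Erbb4* at 12 + 12 wk against 12 wk in hippocampus.

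The acute and chronic effects in corpus callosum were compared directly for the loss phase (3 wk over naive minus 12 wk over naive) and the repair phase (5 + 1 wk over 3 wk minus 12 + 4 wk over 12 wk). The 2 experiments also differed in instrument, read length and age of the naive mice (2 and 8 months), whose part was not tested. 0 of the 16 tests of members were called by limma, where 1.1% and 0.0789% of all genes were, and 2 had an unadjusted p below 0.05. The *Erbb3* effects differed by −0.85 ± 0.54 in the loss phase (adjusted p = 0.58, limma) and by −0.14 ± 0.47 in the repair phase (adjusted p = 0.87, limma). *Egfr* differed by −1.10 ± 0.27 in the repair phase (adjusted p = 0.10, limma), and *Nrg4* by −0.72 ± 0.27 in the loss phase (adjusted p = 0.28, limma). In the order of the sample labels the loss phase values turned to 0.78 for *Erbb3* and 0.25 for *Nrg4*, and the repair phase value of *Egfr* was −0.57. With the length and GC correction the *Egfr* value was −0.42. Without 5 + 1 wk replicate 1 it was −0.94 (adjusted p = 0.0499, limma), without replicate 2 it was −1.29 (adjusted p = 0.014, limma), and the *Erbb3* repair phase value was 0.19 without 5 + 1 wk replicate 3.

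The rest of the pathway was followed in 6 lists: other EGF family ligands, shedding and processing enzymes, adaptors with the PI3K and ERK arms, inhibitors and turnover, ERK response genes, and ErbB binding scaffolds. In corpus callosum, for the mean of the cuprizone groups against naive, 9 of 36 adaptor and kinase genes were higher and 3 lower, with a median of 0.04 where the median of all genes was −0.003. *Plcg1*, a phospholipase bound by activated receptors, was higher by 0.57 (adjusted p = 0.00023, limma). The adaptor *Shc3* was higher by 0.39, while *Hras*, a small GTPase upstream of ERK, fell by 0.42 (adjusted p = 0.01 and 0.0041, limma). The *Plcg1* effect in corpus callosum exceeded that in cortex by 0.59 (adjusted p = 0.0001, limma) and that in hippocampus by 0.63 (adjusted p = 7.3e-05, limma).

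Among inhibitors and turnover genes 4 of 13 were higher and 2 lower in the same comparison, with a median of 0.01. *Cbl*, a ubiquitin ligase that sends EGFR to degradation, was higher by 0.99 (adjusted p = 7.1e-05, limma), and *Spry2*, a feedback inhibitor of ERK, fell by 0.22. Of 13 shedding and processing genes 2 were higher and 2 lower. *Psenen*, a subunit of gamma-secretase, fell by 0.43, and *Adam19*, a protease that can process neuregulin, rose by 0.30. Of 7 other EGF family ligands tested, 0 were higher and 2 lower, *Cspg5* by −0.34 and *Areg* by −0.33. ERK response genes had 0 of 14 higher and 1 lower (*Myc*, −0.25), with a median of −0.26. The scaffolds had 1 of 8 lower (*Cdc37*, −0.18). Against the background of 28.4% called, the counts were 12 of 36, 6 of 13, 4 of 13, 2 of 7, 1 of 14 and 1 of 8. Naive corpus callosum libraries differed from the others in length trend, and its part in these lists was not tested.

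At 12 + 12 wk against 12 wk in hippocampus the calls in the same lists are set against 13.2% of all genes. Of 36 adaptor and kinase genes 3 were higher and 3 lower (*Gab1* 0.48, *Pik3cb* −0.38 and *Hras* 0.34), with a median of −0.06. *Erbin*, a scaffold that binds ErbB2, was higher by 0.64 and *Cblb*, a ubiquitin ligase, fell by 0.55 on the log2 scale. Of 14 ERK response genes 1 was higher (*Fosb*, 0.63) and 2 lower (*Etv1* and *Dusp4*, −0.64 each). Among the shedding enzymes *Adam17* was higher by 0.22 and *Adam10* lower, at −0.27. Of the 6 lists, 0 genes were called in the acute experiment by limma.

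Between naive regions the pathway differed more broadly, as did all genes. Of all genes 43.1% were called between corpus callosum and cortex and 17.7% between corpus callosum and hippocampus. The corpus callosum differences from cortex had a rank correlation of −0.50 with transcript length over 16564 genes. The part of length and of instrument in the differences listed here was not tested. In corpus callosum against cortex, 7 of 36 adaptor and kinase genes were higher and 11 lower (*Gab1* 0.63, *Braf* −0.75 and *Shc3* −0.71), and 1 of 13 inhibitors was higher and 8 lower (*Lrig3* 0.55 and *Cbl* −0.73). *Erbin* was higher by 0.54 in corpus callosum than in cortex and by 1.09 than in hippocampus. *Psenen* (2.63) and *Aph1a* (1.17), both subunits of gamma-secretase, were among the 3 of 13 shedding genes higher in corpus callosum than in cortex, with 2 lower. Among other EGF family ligands, *Tgfa* (0.62) and *Cspg5* (0.45) were higher in corpus callosum than in hippocampus.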

How the data were processed

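RNA was sequenced from 47 libraries of mouse brain tissue. By the submitters' processing notes the authors aligned reads with TopHat2 2.0.13 to GRCm38/mm10 and normalized them with DESeq2, with no version given. The deposited values are log2 normalized expression in 4 tables, and the chronic values appear to be centred gene by gene. Comparisons of regions assume a centre per gene that is shared by the 3 regions. From every table, 27 rows whose names had turned into dates were left out. Genes were kept with a mean linear level of at least 10 (acute, 14536 genes) or with at most 10 of 40 libraries at the lowest value (chronic, 17054 genes).

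Groups came from the sample labels, except the acute columns, whose groups came from the column heads of a supplementary table. Each table was fitted with limma 3.58.1 (R 4.3.3), two-sided, over all its groups. A joint fit of the 40 chronic libraries compared regions, and a fit of 13950 shared genes compared the acute and chronic corpus callosum. P-values were adjusted by Benjamini-Hochberg over all genes tested and called below 0.05. The differences between log2 values are log2 fold changes. Alternatives changed the filter, scaling, weights, covariates, block, samples and the correction for transcript length and GC content (loess, span 0.3; available for 94.1% of acute and 97.1% of chronic genes). Named genes were the 8 members, up to 4 called genes per pathway list (some are not reported here) and the 3 most correlated genes per member. Members and lists were chosen with earlier results of these data known. The fits were tested on simulated data.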

Additional observations from a re-analysis of the deposited data

Results flagged for a closer look

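The effect of cuprizone on *Nrg1* differed between regions by the test of the difference itself (limma, Benjamini-Hochberg adjustment over 17054 genes). The mean difference between cuprizone and naive libraries was larger in corpus callosum than in cortex by 0.55 on the log2 scale (adjusted p = 0.032), and larger than in hippocampus by 0.58 (adjusted p = 0.024). All 9 cuprizone libraries of corpus callosum lay above its 3 naive libraries. No library stood apart from its group by Dixon's test for any member in the 8 member and group sets of 4 libraries that could be tested.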

How the results depend on the processing

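Of 5881 values under an alternative, 5407 kept direction and side of the threshold, 344 moved, 77 gained and 51 lost the call, and 2 reversed with a call on one side. These 2 were the naive differences between corpus callosum and cortex of *Erbb4* (0.29, adjusted p = 0.044, limma) and *Egfr* (0.41, adjusted p = 0.0021) under the length and GC correction; the cause was not tested. Uncalled values that changed sign are among those that moved. Most of the values belong to tests that were not called above, so the share that kept its side says little about how firm the calls are. Counts of calls among members moved most with library weights: 7 in the acute table, 15 in chronic corpus callosum, 7 in hippocampus, 1 in cortex, 5 for differences between regions in the effect and 6 for acute against chronic. With sex as covariate corpus callosum had 4 calls, and with the replicate number as a block it had 4 and the region differences 1, the *Nrg1* difference from cortex being lost (0.47, adjusted p = 0.075, limma). Deviations from the group mean were correlated between libraries of different groups within a region. Those of the same number had r of −0.30 to 0.40 in corpus callosum, −0.67 to 0.25 in hippocampus and −0.33 to 0.23 in cortex. Those of other numbers had −0.50 to 0.50, −0.41 to 0.67 and −0.30 to 0.39. Such libraries come from different mice, and numbers were not compared between regions. Whether a number marks the same mouse across regions was therefore not tested. No paired analysis was possible in the acute table, where columns map to groups and not to numbered samples. Sex as covariate was not run there. In the chronic tables regions were not paired, since the labels do not say which came from the same mouse. With the length and GC correction hippocampus had 1 call. With only the groups compared there was 1 call in the acute table, 3 in corpus callosum and 1 in hippocampus. With spread from the joint fit of 40 libraries corpus callosum had 12 calls and hippocampus 1. Without the mixed libraries corpus callosum had 4 calls, hippocampus 0 (40 of 64 tests could be run) and the region differences 0 (32 of 48, without the *Nrg1* difference from hippocampus); the corpus callosum run, and the hippocampus run with the joint spread (0 calls), were chosen after seeing the data. Leaving out 1 library at a time gave 0 to 0 calls in the acute table, 3 to 11 in corpus callosum, 1 to 4 in hippocampus, 0 to 0 in cortex, 8 to 11 for naive regions, 0 to 4 for region differences in the effect and 0 to 2 for acute against chronic. No depth was known, groups held 1 to 4 libraries, and reads from overlapping transcripts could not be told apart.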
